A study of Mus musculus with 6 samples.

Results

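Neural Sox genes, which encode transcription factors of progenitors and young neurons, were followed in the ventral midbrain of mouse embryos that lack Pitx3. Members were all array probes whose platform gene symbol was Sox1, Sox2, Sox3, Sox4, Sox5, Sox8, Sox9, Sox11 or Sox21. There were 12 such probes for 8 of the 9 genes, out of 31769 gene probes on the array: 4 for Sox5, 2 for Sox3 and 1 for each of the others, while no probe carried the symbol Sox11, which was not analysed here. The mutant samples were 3 pools of Pitx3-/- tissue from stage E14.5, each made from 3 ventral midbrains. Their reference was a single RNA pool from 10 Pitx3+/+ ventral midbrains of the same stage. Each mutant pool was hybridised with that reference on 2 arrays with the dyes exchanged, 6 arrays in all. The sources used here name neither the strain nor the deletion behind the mutant allele. The common reference leaves the spread among wild-type embryos unmeasured, and pooling hides the spread among mutant embryos.

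Sox proteins bind DNA through a shared HMG box and are sorted into groups by sequence. In the developing brain the SoxB1 factors Sox1, Sox2 and Sox3 hold progenitors in an undifferentiated state, and the SoxB2 factor Sox21 acts against them. The SoxC factors Sox4 and Sox11 switch on genes of young neurons after the last division. The SoxD factor Sox5 has no activation domain of its own and tunes the action of other Sox proteins, and the SoxE factors Sox8 and Sox9 act in the glial lineages. Pitx3 is a homeobox transcription factor of postmitotic midbrain dopaminergic neurons, and the study asked which genes of the ventral midbrain depend on it.

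On single arrays the share of probes above background was 46.1% to 51.7% for mutant RNA and 47.5% to 54.6% for the reference. Over all 6 arrays 43.7% of gene probes were above it in at least 1 channel. A probe counted as above background when its signal exceeded the local background by 2 background SDs. Ratios are log2 values of mutant over reference, averaged over both arrays of a pool and given as mean ± SD over the 3 pools. A background constant of 50 units was added to every signal, which pulls ratios towards 0, most of all for dim probes. In the tissue check, 9 of 14 midbrain dopaminergic markers were above background in the mutant on all 6 arrays and 10 in the reference, and 3 were above it nowhere, among them Pitx3 itself. Across probes, which are not independent replicates, pools 1 and 2 correlated at r = 0.585, while pool 3 correlated at -0.214 with pool 1 and at -0.194 with pool 2. The pools come from bulk tissue, so fewer cells of a type and less RNA per cell cannot be told apart.

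Of the neural Sox genes described here, 2 were above background in both channels on all 6 arrays: Sox4 stood at 0.913 times and Sox2 at 0.959 times the reference level in the mutant pools. The Sox4 value rests on a spot whose brightness differed between arrays and changed with the added constant. No member probe passed limma's test after Benjamini-Hochberg adjustment over all probes, where 0% of the 31769 probes did. Sox4 and Sox2 had the lowest values, with ratios of -0.13 ± 0.10 and -0.061 ± 0.039, and both lay below 0 in all 3 pools. Sox8 was above background on most arrays and Sox9 on few. The 8 probes of Sox1, Sox3, Sox5 and Sox21 were not well above background on any array in either channel, so for these 4 genes the ratios carry no usable information on RNA level.

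**Figure D1:**
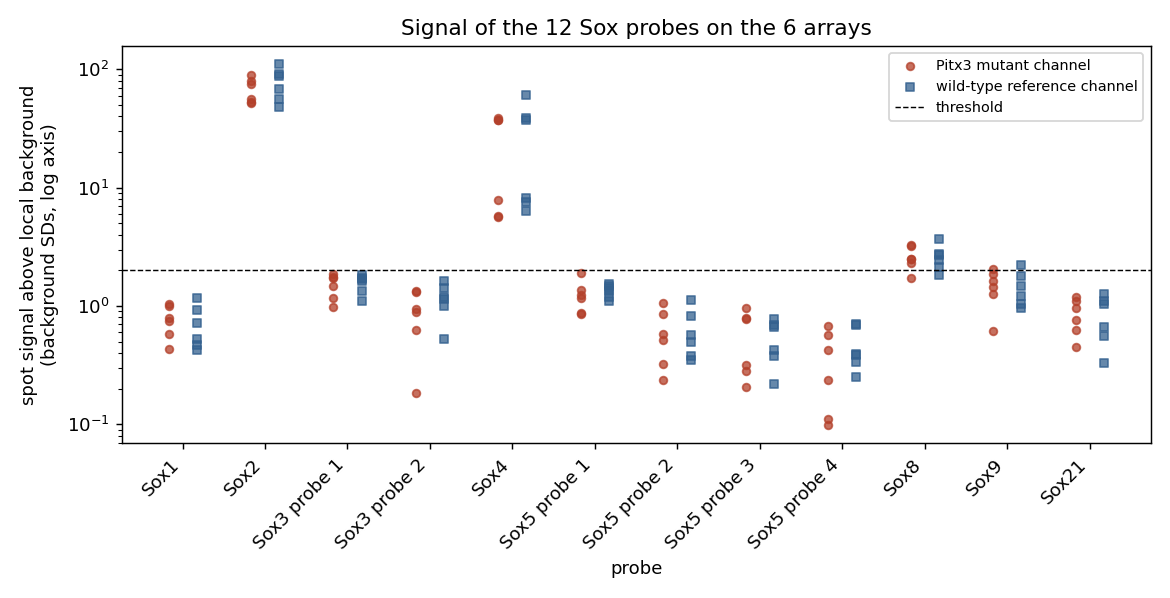
Spot signal above local background, in background SDs on a log axis, for the 12 probes on the 6 arrays; red circles stand for the Pitx3 mutant channel, blue squares for the wild-type reference channel and the dashed line for the threshold of 2 SDs. Sox2 and Sox4 lie above the line on every array, Sox8 on 5 arrays in each channel and Sox9 on 1 array in each channel, and the other 8 probes lie below it throughout.

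Promoters of Sox2 and Sox4 are shown because these are the members above background on every array. RefSeq promoter entries (build GRCm38.p6) were found for 6 of the 8 measured genes: Sox1, Sox2, Sox4, Sox5, Sox8 and Sox21. The windows are the 250 bases before the annotated start, 5′ to 3′ on the gene's strand, at chr3:34649745-34649994 on the plus strand for Sox2 and at chr13:28953700-28953949 on the minus strand for Sox4. Capitals mark the motifs searched on both strands: TAATCC, the core bound by Pitx and other bicoid-type homeodomains, ACAAAG and ACAATG, cores bound by Sox proteins, and the CCAAT box.
Sox2: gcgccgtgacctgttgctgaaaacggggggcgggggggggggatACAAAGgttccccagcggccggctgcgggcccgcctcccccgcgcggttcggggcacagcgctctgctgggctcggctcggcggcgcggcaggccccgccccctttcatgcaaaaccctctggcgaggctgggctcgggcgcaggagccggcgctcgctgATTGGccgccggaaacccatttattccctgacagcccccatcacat
Sox4: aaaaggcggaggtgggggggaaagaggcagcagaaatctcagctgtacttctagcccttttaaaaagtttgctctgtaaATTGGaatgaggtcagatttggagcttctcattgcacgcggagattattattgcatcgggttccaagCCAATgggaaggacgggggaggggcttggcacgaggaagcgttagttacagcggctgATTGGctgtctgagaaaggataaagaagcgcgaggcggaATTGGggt
Neither window held TAATCC, nor did those of the other 4 genes, and 6.25% of all 32851 promoter windows held it. The Sox2 window held 1 ACAAAG, found in 16.5% of all windows, and 1 CCAAT box on the opposite strand. The Sox4 window held 4 CCAAT boxes, 3 of them on the opposite strand, where 33.8% of all windows held at least 1. The share of windows with 4 or more was not counted. ACAATG was in neither and is found in 10.7% of all windows. A match is a run of letters and not a tested binding site.

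Sox2 is the SoxB1 factor most used as a marker of neural progenitors. Its ratios were -0.10, -0.054 and -0.026 in mutant pools 1, 2 and 3. All 3 lay below 0 and their range of 0.076 was close to the median range of 0.066 over the 13882 probes above background on all arrays. The mean corresponds to 0.959 times the reference level, with a 95% interval of 0.928 to 0.991. With mutant RNA in Cy5, its signal minus background was 654, 380 and 411 units in mutant pools 1, 2 and 3, against 336, 213 and 181 units in the Cy3 reference. With the dyes exchanged it was 298, 203 and 291 units in the Cy3 mutant, against 846, 474 and 706 units in the Cy5 reference. Cy5 gave the higher reading on every array, whichever RNA carried it, and the mean of both orientations removes that term. The ratio was -0.088 over the 3 arrays with mutant RNA in Cy5 and -0.033 over those with it in Cy3. In limma's test Sox2 had an unadjusted p of 0.0221 and an adjusted p of 0.908. With median centring in place of loess the mean was -0.15, and without pool 1 it was -0.040. In the RefSeq annotation Sox2 lies inside the span of the non-coding gene Sox2ot, and where the probe lies in the transcript was not known here.

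Sox4, the SoxC factor of young neurons, had ratios of -0.046, -0.11 and -0.24 in mutant pools 1, 2 and 3. All 3 lay below 0, and pool 3 was the lowest. The mean corresponds to 0.913 times the reference level, with a 95% interval of 0.852 to 0.978. By size this mean was at the 98.8th percentile of the 13882 probes above background on all arrays, and its range over the pools at the 91.1st. On single arrays Sox4 lay below 0 on 5 of 6, the exception being pool 1 with mutant RNA in Cy5, at 0.012. In limma's test Sox4 had an unadjusted p of 0.0197 and an adjusted p of 0.908. Without pool 3 the mean was -0.079.

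The brightness of the Sox4 spot differed between arrays that carried the same reference RNA. With mutant RNA in Cy5, the signal minus background was 53.7, 254 and 281 units in mutant pools 1, 2 and 3, against 26.3, 141 and 144 units in the Cy3 reference. With the mutant in Cy3, it was 20.2, 20.2 and 160 units in the mutant, against 63.0, 56.7 and 482 units in the Cy5 reference. Both channels were thus dim together on both pool 1 arrays and on 1 pool 2 array, and bright together on the other 3 arrays. In the reference alone, the highest Cy5 reading was 8.50 times the lowest, where the median probe among 13357 above background in the reference had 1.28 times, placing Sox4 at the 99.1st percentile. In Cy3 the factor was 5.47, against a median of 1.69. Of the other 146 such probes printed in the same block, 2 had a Cy5 factor at least as high as Sox4 and 4 a Cy3 factor, and the medians in the block were 1.24 and 1.71. The reference factor for Sox2 was 1.78 in Cy5, at the 91.2nd percentile, and 1.85 in Cy3, at the 64.9th.

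**Figure D2:**
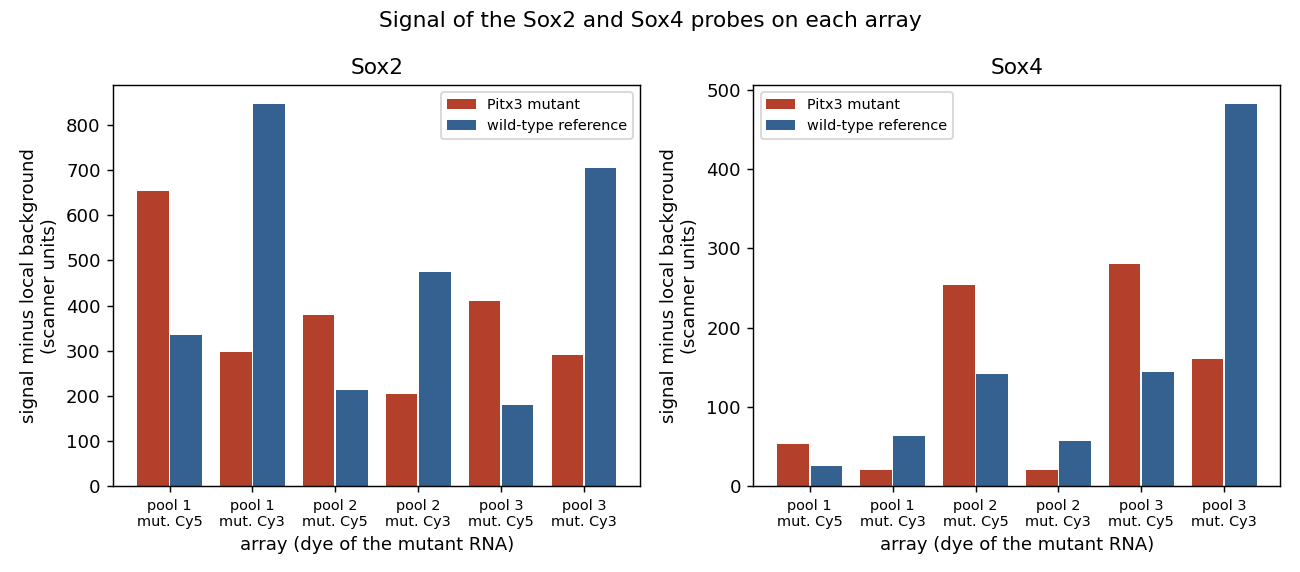
Signal minus local background, in scanner units, of the Sox2 and Sox4 probes on each of the 6 arrays; red bars stand for the Pitx3 mutant and blue bars for the wild-type reference, and the label gives the dye of the mutant RNA. Sox4 was dim in both channels on 3 arrays, with at most 63.0 units, and bright in both on the other 3, while Sox2 stayed between 181 and 846 units.

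The added constant weighs more on the dim arrays, so the Sox4 ratios depend on it. With a constant of 0 they were -0.11, -0.24 and -0.29 in mutant pools 1, 2 and 3, a mean of -0.21 ± 0.092, which is 1.63 times the size with a constant of 50. On the 3 bright arrays the ratios with a constant of 0 were -0.15 for pool 2 and -0.28 and -0.30 for pool 3. On the 3 dim arrays they were -0.26 and 0.031 for pool 1 and -0.33 for pool 2. The part of the spot's brightness in the ratio was not tested. For Sox2 the same change moved the mean to -0.068 ± 0.038, while its unadjusted p in limma's test went from 0.0221 to 0.26.

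**Figure D3:**
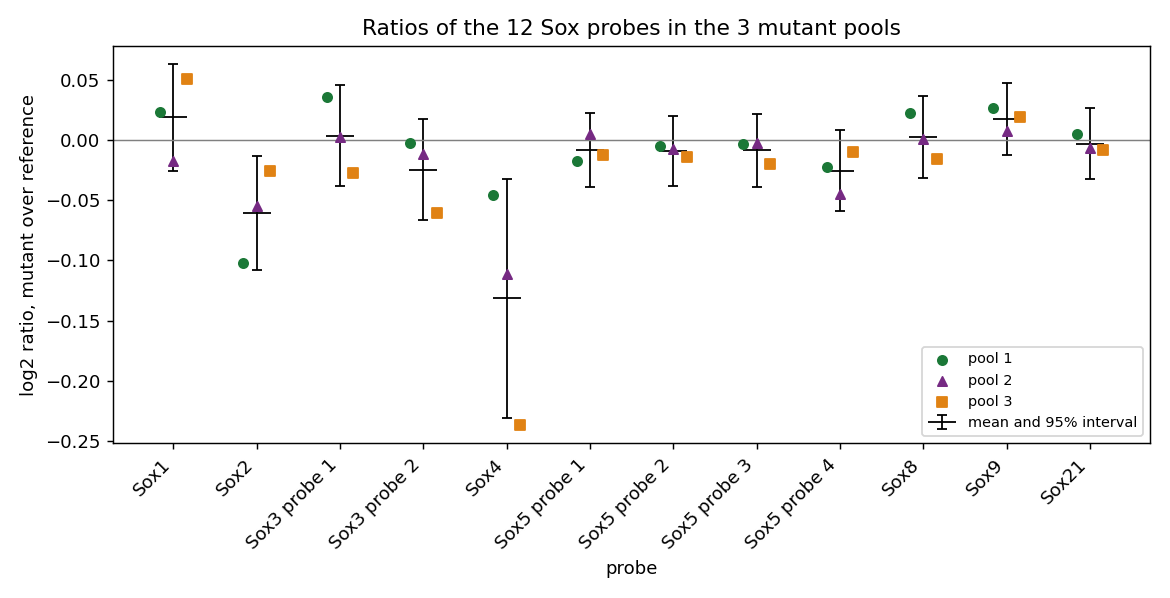
Log2 ratio of mutant over reference for the 12 probes; coloured symbols are the 3 mutant pools, bars the mean and lines the 95% interval from limma. Sox4 and Sox2 lie below 0 in all pools, and the other probes have means between -0.026 and 0.019.

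The SoxE members Sox8 and Sox9 were at the edge of detection. Sox8, which acts in the oligodendrocyte lineage, was above background on 5 of 6 arrays in the mutant and on 5 in the reference. Its ratios were 0.023, 0.0007 and -0.016 in mutant pools 1, 2 and 3, on both sides of 0, with a mean of 0.0024 ± 0.019 and a 95% interval of -0.032 to 0.037. Its signal minus background reached 22.5 units in the Cy5 mutant and 25.2 units in the Cy5 reference. Sox9, a factor of neural stem cells, of astrocyte formation and of cartilage, was above background on 1 array in the mutant and on 1 in the reference. Its ratios were 0.026, 0.0078 and 0.019, all above 0, with a mean of 0.018 ± 0.0093. Its sign differed between the dye orientations: the mean was -0.034 with the mutant in Cy5 and 0.070 with the mutant in Cy3. In limma's test the adjusted p was 0.984 for Sox8 and 0.908 for Sox9. With a constant of 0 their SD over pools was 0.10 and 0.11, so a difference of that size in these genes was not detectable here.

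For the remaining members, under the threshold of 2 background SDs in both channels, ratios are given with no fold. The SoxB1 gene Sox1 had ratios of 0.023, -0.018 and 0.051 in mutant pools 1, 2 and 3. The brighter Sox3 probe had 0.036, 0.0027 and -0.028, and its dimmer probe -0.0025, -0.012 and -0.060. The SoxB2 gene Sox21 had 0.0053, -0.0067 and -0.0083. These 4 probes thus crossed 0 between pools except the dimmer Sox3 probe, which was above 0 with the mutant in Cy5, at 0.012. The means of the 4 Sox5 probes lay between -0.026 and -0.0084, and 3 of the 4 were below 0 in all 3 pools. They share a gene and so are not separate observations. Signals of these 8 probes never exceeded the background by more than 1.91 background SDs. With a constant of 0, their SD over pools ranged from 0.086 to 0.44, against 0.0047 to 0.034 with the constant of 50. The narrow intervals of these probes in the plot of ratios hold for the compressed scale and set no limit on the RNA.

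Counted over all members, 6 of 12 probes (50%) lay below 0 in all 3 pools, where 12.6% of all gene probes did. Of these 6, 4 were never above background, and 3 of those 4 belong to Sox5. The Sox9 probe was the 1 above 0 in all 3 pools (8.33%), where 12.9% of all gene probes were. The remaining 5 had mixed signs. At an unadjusted p under 0.05 there were 2 member probes, Sox2 and Sox4, or 16.7%, where 4.87% of all probes and 9.48% of those above background on all arrays reached it. No member lay on 1 side of 0 on all 6 arrays, where 1.28% of all probes were above and 1.34% below. The median ratio of the 12 probes was -0.0084, against -0.000083 for all gene probes. In 7 of 12 the mean had opposite signs in the 2 dye orientations, with neither Sox2 nor Sox4 among them. That share was not counted over all gene probes, so whether it is unusual cannot be said.

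The genes whose ratios lay closest to those of Sox4 over the 6 arrays, among 9472 named genes above background on all arrays, were Top2b, Nacad and Nr4a2. Top2b, a DNA topoisomerase gene, had -0.021, -0.16 and -0.15 in mutant pools 1, 2 and 3 and a root mean square distance of 0.064. Nacad had -0.015, -0.049 and -0.19 at a distance of 0.066. Nr4a2, which encodes the dopaminergic neuron factor Nurr1, had -0.086, -0.061 and -0.23 at a distance of 0.067. All 3 lay below 0 in all pools, and each had an adjusted p of 0.908 in limma's test. They were picked for closeness to Sox4, itself below 0 in all pools, so their direction follows in part from that choice. The match used ratios with the constant of 50, on which the Sox4 values depend. The likeness describes 6 arrays that share 1 reference.

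The rest of the Sox family was read next. Of 9 measured genes outside the member list, none reached an unadjusted p under 0.05 in limma's test, and their median was 0.0082. Sox30 stood at -0.029 ± 0.029 and Sox15 at 0.069 ± 0.12. Sox18, an endothelial factor, stood at 0.014 ± 0.0027 with signals below the background threshold throughout. Sox10, the third SoxE gene and a marker of oligodendrocyte precursors and neural crest, was above background throughout, with 0.043, 0.15 and -0.12 in mutant pools 1, 2 and 3 (chosen after its values were seen). Pool 3 lay on the other side of 0 from pools 1 and 2.

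Transcription factors that partner with Sox proteins had 17 of 18 genes measured, and none passed after adjustment. At an unadjusted p under 0.05, 2 were higher and 1 was lower, or 17.6%, beside 4.87% of all probes and 9.48% of those above background on all arrays. Pou3f4, a POU factor of neural progenitors, stood at -0.089 ± 0.044 and was below 0 on all 6 arrays. Nfix and Nfia, nuclear factor I genes of gliogenesis, stood at 0.12 ± 0.090 and 0.062 ± 0.042. The Nfix ratios were 0.20, 0.13 and 0.024 in mutant pools 1, 2 and 3, all above 0.

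Genes of the cells in which Sox factors act were read in the same way. All 30 radial progenitor genes were measured, and 2 were higher and 2 lower at an unadjusted p under 0.05, or 13.3%. Prom1, a membrane protein of progenitors, stood at 0.063 ± 0.020, Id3, an inhibitor of differentiation, at 0.078 ± 0.041 and the endothelin receptor gene Ednrb at -0.082 ± 0.047. Prom1 was above background on 4 arrays in the mutant and on 1 in the reference. Of 22 measured young neuron genes 3 were higher and 2 lower, or 22.7%. The shares of both lists stand beside 4.87% of all probes and 9.48% of those above background on all arrays. The microtubule regulators Stmn1 and Stmn2 stood on opposite sides of 0, at -0.065 ± 0.031 and 0.061 ± 0.036, and the RNA-binding protein gene Elavl4 at 0.038 ± 0.0041. Elavl4 was above 0 on only 3 of the 6 arrays. The list medians were 0.016 for progenitors and -0.0020 for young neurons. No gene of either list passed after adjustment over all probes.

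Of the glial lineage genes 18 of 20 were measured, 2 were higher and none was lower at an unadjusted p under 0.05. This share of 11.1% stands beside 4.87% of all probes and is near the 9.48% of those above background on all arrays. Of the 18 measured genes, 6 were never above background. Olig1, a factor of the oligodendrocyte lineage, stood at 0.19 ± 0.022 and Pdgfra, a receptor of its precursors, at 0.11 ± 0.015, both above 0 on all 6 arrays. Olig2 stood at 0.056 ± 0.056. In limma's test the adjusted p was 0.312 for Olig1 and 0.545 for Pdgfra. The list median was 0.016, and 0.036, 0.015 and -0.0059 in mutant pools 1, 2 and 3.

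Markers of other cells that use Sox genes were measured alongside. None of 12 cartilage and neural crest markers reached an unadjusted p under 0.05, and their median was 0.0033. Their summed signal minus background ranged over the arrays from 304 to 1191 units in the mutant and from 421 to 1145 units in the reference, and 3 of the 12 were never above background. Of 13 meningeal and endothelial markers 2 were higher, Pecam1 at 0.057 ± 0.027 and Esam at 0.033 ± 0.012, which is 15.4% of the list. The same p was reached by 4.87% of all probes and 9.48% of those above background on all arrays. Esam was above background on 4 arrays in the mutant and on 2 in the reference. The median of the 13 markers was 0.019, and 4 of them were never above background. Their summed signal ranged from 137 to 469 units in the mutant and from 113 to 676 units in the reference. Their part in the Sox ratios was not tested.

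Of the 14 midbrain dopaminergic markers 3 were higher and 5 lower at an unadjusted p under 0.05, or 57.1%, with a median of -0.013. That share stands beside 4.87% of all probes and 9.48% of those above background on all arrays. The 3 with the lowest p stood on both sides of 0. Slc18a2, the vesicular monoamine transporter, stood at -0.36 ± 0.032. The midbrain homeobox gene En2 stood at 0.79 ± 0.11 and was above 0 on all 6 arrays. Aldh1a1, a retinaldehyde dehydrogenase gene, had a measured ratio of -0.18 ± 0.040, but its mutant channel was above background on 0 arrays, against 6 arrays for the reference channel, so no fold is given. In limma's test their adjusted p was 0.187, 0.208 and 0.527.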

How the data were processed

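RNA of 3 mutant pools and 1 wild-type reference pool was read on 6 arrays of 2 colours. The deposited scanner files give intensity for spots and local background, from an Agilent scanner and ImaGene per the deposited protocol text. The authors also deposited normalized intensity values and log2 ratios, made by print-tip loess without background subtraction per that text. The deposited log2 ratios equalled the normalized ones turned to mutant over reference within 5e-06.

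From the scanner files, limma 3.58.1 in R 4.3.3 was used for normexp correction on mean signal and median background (offset 50) and for loess within each array (span 0.3). The 3223 control spots had weight 0 and were then left out. Arrays of a pool share their RNA extracts, so they were averaged, and the ratios of the 3 pools were tested against 0 (lmFit, eBayes, with 2 residual degrees of freedom and 2.74 from the prior). P-values were adjusted over 31769 probes, with a threshold of 0.05. The fit and the adjustment were tested on simulated pool ratios, while background correction and loess were not. Symbols came from the platform table (26000 probes with 1 symbol, 5769 with none), updated by RefSeq synonyms for lists, with the brightest probe per gene.

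The members and lists were chosen with earlier results of these data known. Named were all member probes, up to 3 genes of each list with the lowest p, and the 3 genes nearest to the member with the widest range over pools and to that with the lowest p, both being Sox4. Alternatives covered the background, normalization, filter, variance model, replicate unit, dye and each pool left out. The number of arrays limits the precision.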

Additional observations from a re-analysis of the deposited data

How the results depend on the processing

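Over 13 alternatives (12 for the other members, since the filter on dim probes kept only Sox2 and Sox4) no member probe passed the threshold, and Sox2 and Sox4 stayed below 0 in each, Sox2 between -0.15 and -0.033 and Sox4 between -0.21 and -0.079. Over all probes limma called none in the main setting (1548 at an unadjusted p under 0.05). It called 11 with an intensity trend in the spread, 18 with 6 arrays, a dye effect and pools as random blocks, and 29 without the block. With only the arrays with the mutant in Cy5 it called 312 and with only those with the mutant in Cy3 430, where the dye is confounded with the genotype. Leaving out 1 pool gave 0 to 1543 calls, the highest without pool 3. The other 5 alternatives gave 0. At an unadjusted p under 0.05 there were 742 of 13882 probes when only those above background on all arrays were fitted. The rest of these alternatives had 1576 to 4943 of 31769 probes. The share of 9.48% used above comes from the fit of all probes.

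Several members close to background turned sign without passing, and the cause was not tested. Without background subtraction Sox1 stood at -0.0097, Sox3 probe 1 (the brighter one) at -0.0036, Sox5 probe 3 at 0.0044, Sox8 at -0.0024 and Sox21 at 0.015. In the authors' deposited ratios Sox1 stood at -0.013, Sox3 probe 1 at -0.0025, Sox5 probes 1, 2 and 3 at 0.0053, 0.0038 and 0.0026, and Sox21 at 0.016. With median centring Sox5 probes 1, 2 and 3 stood at 0.011, 0.0038 and 0.0012 and Sox21 at 0.021. With an offset of 0 Sox8 stood at -0.0016. With only the mutant in Cy5 Sox3 probe 2 stood at 0.012, Sox5 probe 1 at 0.045 and Sox9 at -0.034. With only the mutant in Cy3 Sox3 probe 1 stood at -0.030, Sox5 probe 3 at 0.0015, Sox8 at -0.032 and Sox21 at 0.032. With 1 pool left out, Sox3 probe 1 lay between -0.012 and 0.019 and Sox8 between -0.0077 and 0.012, both lowest without pool 1. Members other than Sox2 and Sox4 were not above background on all 6 arrays, and the Sox4 ratios depended on the added constant. No paired analysis was possible because the wild-type RNA was 1 common pool.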
